A study of Mus musculus with 4 samples.

Results

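The fibroblast growth factor (FGF) genes of cervical motor neurons (MNs) were compared between WT and *Patz1* KO cultures. Membership followed gene names and used no measured value, although earlier results of these data were known when the family was picked. They are the 22 genes that encode numbered FGF ligands, the receptor genes *Fgfr1* to *Fgfr4* and *Fgfrl1*, and 8 feedback genes (*Spry1*, *Spry2*, *Spry3*, *Spry4*, *Spred1*, *Spred2*, *Dusp6* and *Etv5*). This made 35 of the 23420 genes counted. The cells came from E14, a mouse embryonic stem cell (ESC) line. WT cells carried no edit, and *Patz1* -/- (KO) cells were derived from them with Cas9 and a guide against *Patz1*, which encodes a zinc finger protein that the study relates to cohesin and chromatin boundaries. Each genotype had 2 libraries, and the labels do not say which KO clone was behind each library. The titles name ESCs, whereas the source and cell type labels name MNs made from them. All cultures were first kept with LIF, a GSK3 inhibitor and a MEK inhibitor, which acts within the FGF pathway, and were then made into embryoid bodies over 2 days and patterned with 1 µM retinoic acid (RA) and 0.5 µM smoothened agonist (SAG). The stated cervical protocol adds no FGF. The age of the cultures at collection is not given in the sources used here.

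FGF ligands are secreted signals that bind receptor tyrosine kinases together with heparan sulfate. The receptors pass the signal through FRS adaptors and a kinase relay that ends in MEK and ERK, and ERK activity raises genes that damp it again, among them the Sprouty and Spred genes and the ERK phosphatase gene *Dusp6*. The intracellular FGFs encoded by *Fgf11* to *Fgf14* are not secreted and are known as partners of voltage-gated sodium channels in neurons. In the embryonic spinal cord, FGF from caudal tissue keeps progenitors dividing and opposes RA, and it favours posterior *Hox* expression.

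The libraries held 14769104 to 15728158 counted reads for WT and 17402342 to 23881522 for *Patz1* KO, and the members took 0.0588% to 0.0644% of each. The targeted gene *Patz1* was counted 1363 and 1499 times in WT, against 1154 and 714 times in *Patz1* KO, a change of -1.04 on the log2 scale (SE 0.095). It was lower in both KO libraries but was still transcribed. Motor neuron markers, led by *Slc18a3*, *Isl1* and *Lhx3*, were present in all libraries. Of 9 listed, 8 (not *Isl1*) were higher in *Patz1* KO, and their summed level went from 634 to 680.2 CPM (counts scaled to library size by the TMM method) in WT to 999 to 1100.3 CPM in *Patz1* KO. Other lists moved with the genotype too, where 24.0% of all tested genes were higher and 23.4% lower. Of 8 tested markers of primitive and visceral endoderm (led by *Dab2*, *Cubn* and *Gata6*) 6 were lower and 0 higher, with sums of 44.2 to 52.2 CPM in WT and 7.98 to 8.21 CPM in *Patz1* KO. *Ttr*, among the lower ones, reached 10 counts in the WT libraries only, so it entered the test through the group where it was higher. Mesenchyme and neural crest markers (led by *Col3a1*, *Pdgfra* and *Pdgfrb*) had 7 lower and 1 higher of 9, with sums of 149 to 165 CPM in WT and 25.0 to 26.6 CPM in *Patz1* KO. *Col3a1*, with a mean of 94.7 CPM, made up most of the WT sums. Neural crest markers were mixed. *Foxd3* was the higher gene, counted 10 and 9 times in WT, against 82 and 63 times in *Patz1* KO. *Sox10* was not called (log2 change 0.91), and *Tfap2b* was lower. All 6 tested floor plate markers (led by *Ntn1*, *Spon1* and *Shh*) were lower, with sums of 874 to 879 CPM in WT and 558 to 627 CPM in *Patz1* KO. In bulk RNA, fewer cells of a type and less RNA per cell cannot be told apart, here and for every gene that follows.

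**Figure D1:**
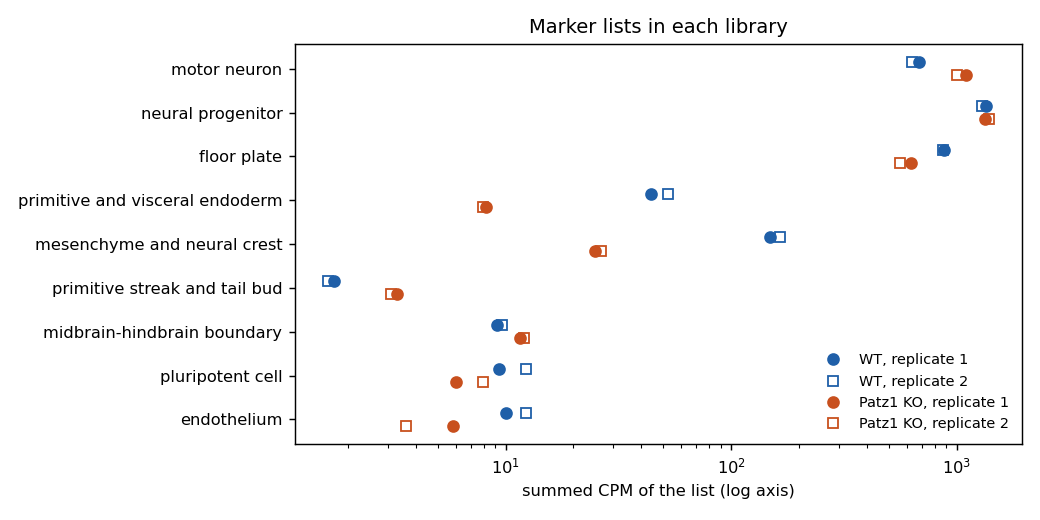
Summed CPM of each marker list (x axis, log scale) in the 2 WT and 2 *Patz1* KO libraries, 1 point a library. The motor neuron sums lie higher in *Patz1* KO, the endoderm sums lie at 44.2 CPM or more in WT and at most 8.21 CPM in *Patz1* KO, and the neural progenitor sums overlap.

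Of the 35 members, 21 had 10 or more counts in at least 2 libraries and were tested. Each of these 21 reached 10 counts in at least 1 library of each group. By the quasi-likelihood test of edgeR, 10 members (47.6% of those tested) differed at a threshold of 0.05 after Benjamini-Hochberg adjustment over all 14394 genes. The background was 47.4% of all tested genes. Higher in *Patz1* KO were 4 members, *Spry2*, *Fgf14*, *Fgfr3* and *Fgf12*, against 24.0% of all tested genes. The 6 lower members were *Fgf10*, *Fgfr4*, *Spry1*, *Fgfr2*, *Spred1* and *Fgfrl1*, against 23.4% of all tested genes. The median log2 change (the log2 fold difference, *Patz1* KO over WT) was 0.15 over the 21 members and -0.0014 over all tested genes. The groups did not overlap in 18 of the 21, against 73.9% of all tested genes. The count of changed FGF genes was therefore close to that of genes in general. The number called was 6 without WT replicate 2, and 0 when the test required a change of at least 1 on the log2 scale.

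**Figure D2:**
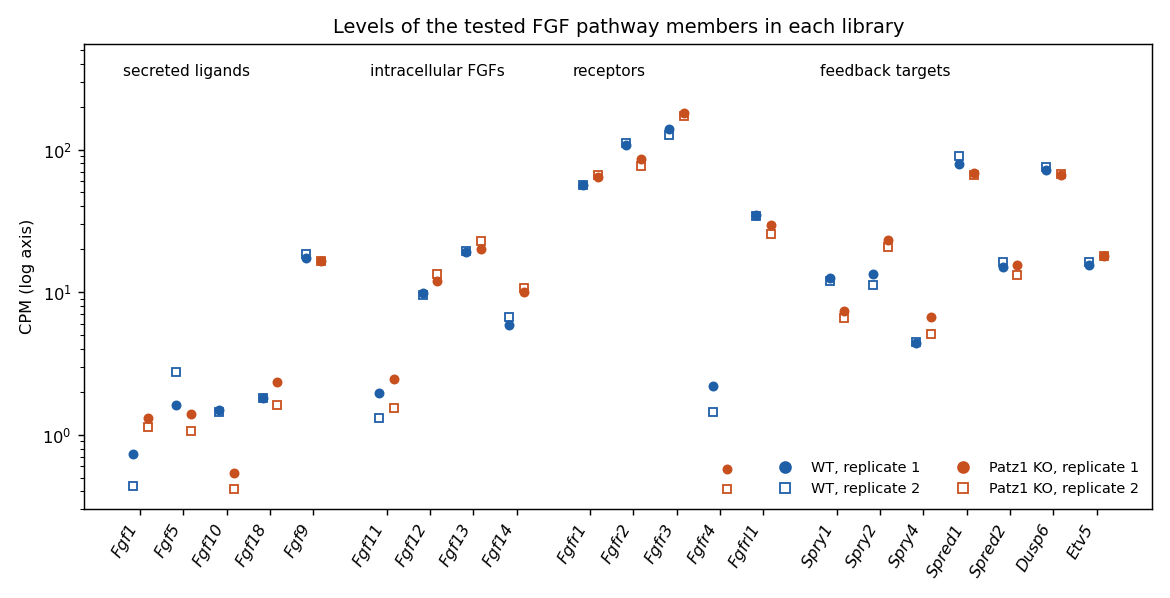
CPM (y axis, log scale) of the 21 tested members in each library, ordered by role. Filled circles are replicate 1 and open squares are replicate 2. CPM is not scaled to gene length, so it compares libraries and not genes. The groups are clearly apart for *Fgf10*, *Fgfr4*, *Spry1* and *Spry2*.

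Of the 5 receptor genes, 1 was higher and 3 were lower in *Patz1* KO, beside 24.0% higher and 23.4% lower of all tested genes. Over all libraries, *Fgfr3* and *Fgfr2* were the most abundant members in mean CPM per kilobase of the longest principal transcript. They lay at the 85.7 and 81.6 percentile of all tested genes. The order of the members depends on the length used, since this transcript of *Fgfr2* has 3323 bases and the union of its exons 10328. *Dusp6* was close behind, with a mean of 24.0 CPM per kilobase in *Patz1* KO against 24.6 for *Fgfr2*. *Fgfr3*, on chromosome 5 of GRCm38 (mm10) from 33721674 to 33737068, was counted 2089 and 2016 times in WT, against 4385 and 2894 times in *Patz1* KO. Its level was 133 ± 9.51 CPM in WT and 177 ± 5.97 CPM in *Patz1* KO (SD, n = 2). Both KO libraries lay above both WT libraries, and the log2 change was 0.40 (SE 0.089, adjusted p = 0.00109 from edgeR). *Fgfr3* marks ventricular progenitors and later astrocytes in the spinal cord. The exons of *Fgfr3* overlap those of *G630022F23Rik* on the other strand, and without WT replicate 2 it was not called (adjusted p = 0.0795 from edgeR, log2 change 0.33).

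*Fgfr2* went the other way. On chromosome 7 (130162451 to 133123350, including a readthrough into *Ctbp2*, with which it shares exons), it was counted 1605 and 1785 times in WT, against 2098 and 1288 times in *Patz1* KO. Scaled to library size this was 110.0 ± 3.19 CPM in WT and 81.6 ± 6.93 CPM in *Patz1* KO (SD, n = 2). Both KO libraries were lower than both WT libraries, with a log2 change of -0.43 (SE 0.092, adjusted p = 0.00087 from edgeR). The change was modest, at 25.7% lower, and the fits that left out 1 library gave log2 changes of -0.52 to -0.34.

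*Fgfr1*, on chromosome 8 from 25513654 to 25575718, was counted 835 and 891 times in WT, against 1549 and 1104 times in *Patz1* KO. The KO libraries were slightly higher, at 64.8 ± 1.33 CPM against 56.0 ± 0.0157 CPM (SD, n = 2), but the log2 change of 0.21 did not pass the test (95% interval 0.02 to 0.40 before adjustment, adjusted p = 0.07 from edgeR). It was called with the replicate number as a block (adjusted p = 0.0495 from edgeR). The fits that left out 1 library gave log2 changes of 0.20 to 0.23. *Fgfrl1*, which encodes a receptor without a kinase domain, lies on chromosome 5 from 108692382 to 108706924. It was counted 519 and 546 times in WT, against 719 and 430 times in *Patz1* KO, which gave 34.6 ± 0.357 and 27.6 ± 2.85 CPM (SD, n = 2). Its log2 change was -0.32 (SE 0.11, adjusted p = 0.0229 from edgeR). That call was lost with DESeq2's Wald test (adjusted p = 0.115) and when WT replicate 1 (0.118 from edgeR), WT replicate 2 (0.107) or KO replicate 2 (0.085, log2 change -0.21) was left out.

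*Fgfr4* changed most among the receptors, from a low level. It lies on chromosome 13 from 55152640 to 55168759 and was counted 33 and 23 times in WT, against 14 and 7 times in *Patz1* KO. This was 1.83 ± 0.543 CPM in WT and 0.497 ± 0.113 CPM in *Patz1* KO (SD, n = 2), 3.55-fold lower (log2 change -1.83, SE 0.43, adjusted p = 0.0019 from edgeR). The groups did not overlap, and the fits that left out 1 library gave log2 changes from -2.11 to -1.51. FGFR4 is known from endoderm, liver and muscle precursors, and beta-Klotho, encoded by *Klb*, is its co-receptor for endocrine FGFs. *Klb* was counted 21 and 35 times in WT, against 2 and 7 times in *Patz1* KO (log2 change -2.99, SE 0.56). It reached 10 counts in the WT libraries only, so it entered the test through the group where it was higher. Its change is therefore no support for that of *Fgfr4*. *Klb* was picked out after its values were seen. The endoderm and mesenchyme sums were lower beside these genes, as given above, none of their markers was at 0 in all libraries, and their part in the result was not tested.

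Levels of different receptors can be set side by side only per length, here as CPM per kilobase of the longest principal transcript. On that scale *Fgfr2* (42.0% and 44.9% of the summed level of *Fgfr1* to *Fgfr4*) and *Fgfr3* (42.7% and 39.7%) were close together in the WT libraries. In *Patz1* KO the share of *Fgfr3* was 52.3% and 52.8% and that of *Fgfr2* 31.9% and 30.0%. *Fgfr1* made up 14.4% and 14.8% in WT and 15.6% and 17.0% in *Patz1* KO. The share of *Fgfr4* was at most 0.862% in any library. With the union of all exons as length, *Fgfr3* led in WT as well (53.9% and 51.1%, against 28.7% and 31.4% for *Fgfr2*), so the order of these receptors in WT depends on the length used, but the higher share of *Fgfr3* in *Patz1* KO (62.7% and 62.9%) does not. The summed level of these receptors was 75.2 to 77.3 CPM per kilobase in WT and 76.9 to 81.5 CPM per kilobase in *Patz1* KO, and the groups overlapped.

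**Figure D3:**
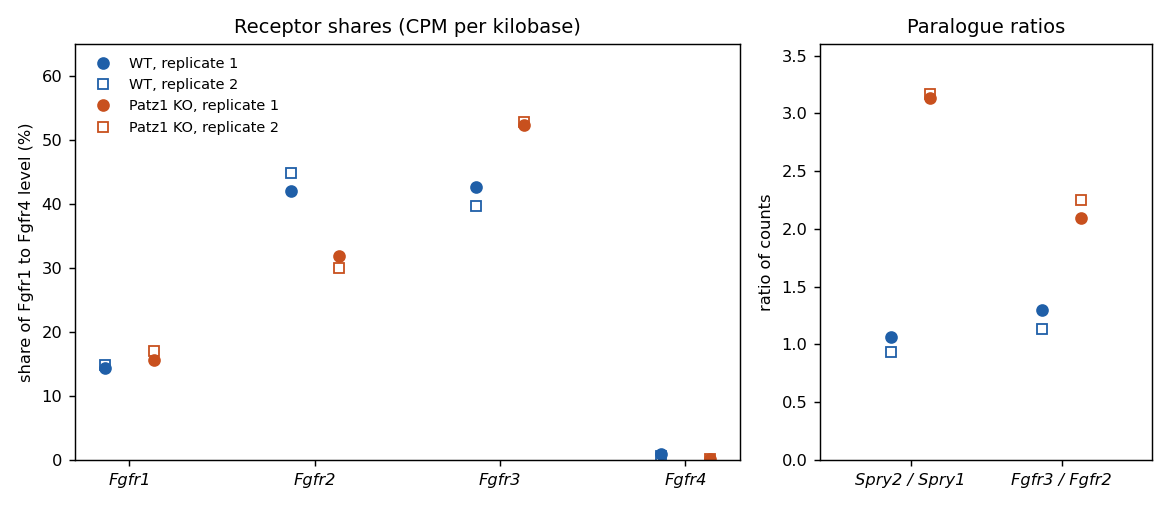
Left, share of each receptor (%) in the summed level of *Fgfr1* to *Fgfr4* in CPM per kilobase. Right, ratio of the counts of *Spry2* to *Spry1* and of *Fgfr3* to *Fgfr2*. Each point is 1 library. The *Fgfr3* share is 52.3% and 52.8% in *Patz1* KO against 42.7% and 39.7% in WT, and the *Spry2* to *Spry1* ratio is 3.13 and 3.17 against 1.06 and 0.937.

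The feedback genes did not move together. Of the 7 tested, 1 was higher and 2 were lower, beside 24.0% higher and 23.4% lower of all tested genes. The median log2 change was -0.11. The Sprouty paralogues *Spry1* and *Spry2*, whose proteins both damp signalling from receptor tyrosine kinases to ERK, changed in opposite directions. *Spry2*, on chromosome 14 from 105891947 to 105896819, was counted 199 and 179 times in WT, against 561 and 349 times in *Patz1* KO. Its level rose from 12.3 ± 1.49 to 22.0 ± 1.66 CPM (SD, n = 2), a log2 change of 0.84 (SE 0.14, adjusted p = 6.38e-05 from edgeR). *Spry1*, on chromosome 3 from 37639947 to 37644598, was counted 187 and 191 times in WT, against 179 and 110 times in *Patz1* KO. It fell from 12.3 ± 0.383 to 6.97 ± 0.586 CPM (SD, n = 2), a log2 change of -0.81 (SE 0.16, adjusted p = 0.000544 from edgeR). For both genes the groups did not overlap. The fits that left out 1 library gave 0.72 to 0.96 for *Spry2* and -0.90 to -0.72 for *Spry1*. The exons of *Spry1* overlap those of *Gm42922* on the other strand.

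Within each library, the ratio of *Spry2* to *Spry1* counts does not depend on library size or scaling. It was 1.06 and 0.937 in WT and 3.13 and 3.17 in *Patz1* KO. In the same way, the ratio of *Fgfr3* to *Fgfr2* was 1.30 and 1.13 in WT and 2.09 and 2.25 in *Patz1* KO. These pairs were picked after the members were seen to differ in opposite directions, so that the ratios separate the genotypes is no further result, and no test was run on them. *Spry4*, a further paralogue, was counted 66 and 71 times in WT, against 163 and 86 times in *Patz1* KO. Its log2 change of 0.43 did not pass (95% interval -0.03 to 0.89, adjusted p = 0.115 from edgeR). The change was 0.61 without KO replicate 2 and 0.21 without KO replicate 1. *Spry3* had no count in any library.

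*Dusp6*, which encodes the phosphatase that inactivates ERK, was counted 1070 and 1198 times in WT, against 1605 and 1139 times in *Patz1* KO, which gave 73.6 ± 2.48 and 67.0 ± 1.17 CPM (SD, n = 2). The KO libraries were slightly lower, but the log2 change of -0.14 did not pass the test (95% interval -0.33 to 0.06, adjusted p = 0.234 from edgeR). *Etv5*, an ETS transcription factor gene raised by FGF signals, was at 16.0 ± 0.457 CPM in WT and 17.9 ± 0.194 CPM in *Patz1* KO (SD, n = 2). Its 95% interval on the log2 scale was -0.10 to 0.43 (adjusted p = 0.3 from edgeR). For neither gene does the missed threshold show that the genotypes were alike.

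The Spred proteins block the relay upstream of ERK. *Spred1* was counted 1181 and 1427 times in WT, against 1655 and 1116 times in *Patz1* KO, and its level fell from 84.5 ± 7.39 to 67.4 ± 1.25 CPM (SD, n = 2). The log2 change was -0.33 (SE 0.094, adjusted p = 0.0082 from edgeR). Without WT replicate 2, the higher of the WT libraries, it was -0.24 and not called (adjusted p = 0.212 from edgeR). *Spred2* was at 15.6 ± 0.795 CPM in WT and 14.3 ± 1.58 CPM in *Patz1* KO (SD, n = 2), its groups overlapped, and it did not pass (log2 change -0.11, adjusted p = 0.522 from edgeR).

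**Figure D4:**
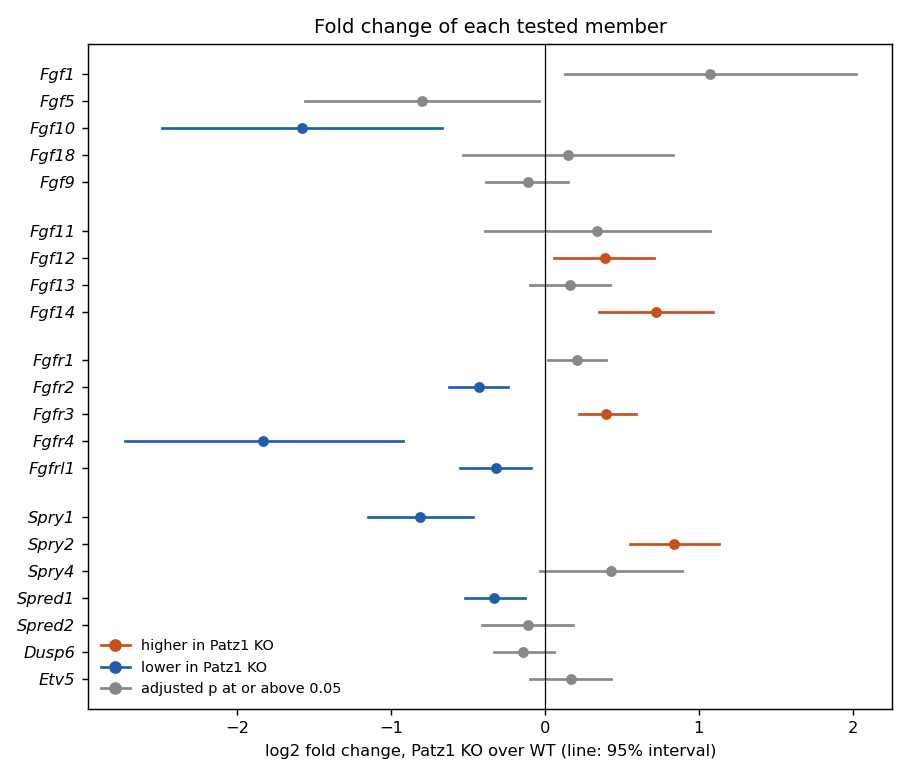
Log2 change, *Patz1* KO over WT (x axis), of the 21 tested members with its 95% interval (line, not adjusted for the number of genes). Colours mark the 4 members called higher, the 6 called lower and the 11 not called. *Spry2* (0.84) and *Spry1* (-0.81) lie on opposite sides of 0, as do *Fgfr3* (0.40) and *Fgfr2* (-0.43).

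Secreted ligands were scarce. Of 18 genes, 5 could be tested and 1 differed, beside 47.4% of all tested genes. The level of all 18 together was 24.2 to 26.5 CPM in WT and 22.0 to 23.2 CPM in *Patz1* KO. *Fgf9*, a ligand known from neurons and mesenchyme, made up most of it. Per kilobase, *Fgf9* held 76.3% and 73.5% of the summed ligand level in WT and 73.4% and 78.8% in *Patz1* KO. With the union of all exons as length, the share was lower, at 54.8% and 51.1% in WT and 51.5% and 58.8% in *Patz1* KO. *Fgf9* was counted 260 and 292 times in WT, against 400 and 279 times in *Patz1* KO, which gave 17.9 ± 0.642 and 16.6 ± 0.0876 CPM (SD, n = 2). The log2 change of *Fgf9* did not pass the test (-0.11, 95% interval -0.38 to 0.15, adjusted p = 0.482 from edgeR).

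*Fgf10* was the secreted ligand that changed. FGF10 is a mesenchymal signal known from limb and lung buds, and is also made in parts of the nervous system. The gene lies on chromosome 13 from 118669791 to 118792115, its exons overlap those of *Gm16263* on the other strand, and it was counted 22 and 23 times in WT, against 13 and 7 times in *Patz1* KO. The level fell from 1.46 ± 0.0215 to 0.476 ± 0.0842 CPM (SD, n = 2), 2.98-fold (log2 change -1.58, SE 0.43, adjusted p = 0.00599 from edgeR). Groups did not overlap, and the fits without 1 library gave log2 changes of -1.79 to -1.42. DESeq2's Wald test did not call the fall (adjusted p = 0.0769). Mesenchyme markers were lower in the same libraries, as given above, and their part in this result was not tested.

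The other tested ligands had few counts and did not pass. *Fgf1* was counted 11 and 7 times in WT, against 32 and 19 times in *Patz1* KO (log2 change 1.07, 95% interval 0.13 to 2.02, adjusted p = 0.0583 from edgeR). *Fgf5*, a ligand of the epiblast, was counted 24 and 44 times in WT, against 34 and 18 times in *Patz1* KO (log2 change -0.80, 95% interval -1.56 to -0.04, adjusted p = 0.0757 from edgeR). Without 1 library, the log2 change was 0.73 to 1.46 for *Fgf1* and -1.15 to -0.36 for *Fgf5*. *Fgf5* was called after thinning to the smallest library (adjusted p = 0.0138 from edgeR). *Fgf18* was counted 27 and 29 times in WT, against 57 and 27 times in *Patz1* KO, and its groups overlapped (log2 change 0.15).

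The remaining 13 ligand genes, and *Spry3*, fell below the limit for testing, and no count of theirs exceeded 11. Several are signals of early embryonic sources. *Fgf8*, the ligand of the midbrain-hindbrain boundary and tail bud, was counted 0 and 1 times in WT, against 0 and 0 times in *Patz1* KO. *Fgf17*, its relative, was counted 1 and 1 times in WT, against 4 and 1 times in *Patz1* KO, and *Fgf15* had 4 and 9 in WT and 11 and 5 in *Patz1* KO. *Fgf4*, the ligand of pluripotent cells, and *Fgf6* had no count in any library, which allows levels up to 0.126 to 0.203 CPM (3 counts in a library, counting error only). *Spry3* had no count either, but its symbol was not matched in the annotation used here, so no such limit is given for it. *Fgf20* was counted 2 and 5 times in WT, against 0 and 0 times in *Patz1* KO, and *Fgf3* had 1 and 2 in WT and 0 and 0 in *Patz1* KO. Without a filter on low counts these genes were not called either (adjusted p = 0.0577 for *Fgf20*, the lowest, from edgeR). *Fgf2*, *Fgf7*, *Fgf16*, *Fgf21*, *Fgf22* and *Fgf23* had at most 5 counts in any library.

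Markers of the primitive streak and tail bud, the midbrain-hindbrain boundary and pluripotent cells were low as well. The calls in these and the following lists stand beside 24.0% higher and 23.4% lower of all tested genes. The primitive streak and tail bud list summed to 1.63 to 1.74 CPM in WT and 3.10 to 3.30 CPM in *Patz1* KO, with *Msgn1* and *Cdx1* at 0 in every library. In that list *Nkx1-2* was called higher and *Tbx6* was not called, and the other 6 genes were too low to be tested. *Nkx1-2* reached 10 counts in the *Patz1* KO libraries only, so it entered the test through the group where it was higher. The midbrain-hindbrain boundary list summed to 9.19 to 9.62 CPM in WT and 11.5 to 12.0 CPM in *Patz1* KO, with 2 of 4 tested genes higher and 1 lower (*En2*, while *Gbx2*, the most counted, was not called). *Pax8*, among the higher ones, reached 10 counts in the *Patz1* KO libraries only and entered the test in the same way as *Nkx1-2*. The pluripotent cell list summed to 9.39 to 12.3 CPM in WT and 6.02 to 7.98 CPM in *Patz1* KO, with 2 of 5 tested genes lower, 0 higher and *Utf1* at 0, and was led by *Nanog*, *Klf4* and *Zfp42*. *Dppa5a*, among the lower ones, reached 10 counts in the WT libraries only, so it too entered through the group where it was higher. Endothelium markers (led by *Kdr*, *Cdh5* and *Esam*), of which 3 of 5 were lower and 0 higher, summed to at most 12.3 CPM in WT and to 3.63 to 5.85 CPM in *Patz1* KO. Neural progenitor markers (led by *Fabp7*, *Nes* and *Sox2*) were not low, with sums of 1292 to 1351 CPM in WT and 1329 to 1396 CPM in *Patz1* KO. Of these 9 markers, 4 were higher and 3 lower.

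Of the 4 intracellular FGF genes, *Fgf12* and *Fgf14* were higher in *Patz1* KO and 2 did not pass the test, beside 47.4% of all tested genes called. Together they went from 36.7 to 36.8 CPM in WT to 44.7 to 48.4 CPM in *Patz1* KO. *Fgf14*, on chromosome 14 from 123977907 to 124677127, was counted 88 and 106 times in WT, against 244 and 180 times in *Patz1* KO. Its level rose from 6.28 ± 0.536 to 10.4 ± 0.467 CPM (SD, n = 2), a log2 change of 0.72 (SE 0.17, adjusted p = 0.00241 from edgeR). The fits without 1 library gave 0.63 to 0.81. Its exons overlap those of *Gm28932* on the other strand. *Fgf12* was counted 146 and 151 times in WT, against 289 and 225 times in *Patz1* KO. This gave 9.64 ± 0.216 and 12.7 ± 1.05 CPM (SD, n = 2) and only just passed (log2 change 0.39, adjusted p = 0.0457 from edgeR). The call of *Fgf12* was lost with library size alone (0.0703 from edgeR), with DESeq2's Wald test (0.171), without WT replicate 1 (0.177), without WT replicate 2 (0.243) and without KO replicate 2 (0.0974).

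*Fgf13*, on the X chromosome, was the most abundant of the intracellular FGF genes per kilobase, at 7.67 ± 0.0682 in WT and 8.59 ± 0.721 in *Patz1* KO (CPM per kilobase, SD, n = 2). Its log2 change of 0.16 did not pass (95% interval -0.10 to 0.42, adjusted p = 0.301 from edgeR). *Fgf11* was counted 29 and 21 times in WT, against 60 and 26 times in *Patz1* KO, and its groups overlapped (log2 change 0.34, adjusted p = 0.447 from edgeR, and -0.07 without KO replicate 1). The motor neuron markers, which were higher in the same libraries, moved with *Fgf12* and *Fgf14*, and their part in these values was not tested.

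The upstream sequences of *Fgf10*, *Fgfrl1* and *Spry2* are shown as 1 called ligand, 1 called receptor and 1 called feedback gene whose RefSeq promoter window held no annotated exon. They were picked after the windows were seen, because they hold different numbers of the G-rich letters of MAZ, a zinc finger protein that the study sets beside PATZ1. Each is the 250 bases before the RefSeq start on GRCm38.p6, written on the strand of the gene, with matches to GGGAGGG (the MAZ core) or CCGGAA (an ETS core) on either strand in capitals. The windows are chr13:118714449-118714698 on the plus strand for *Fgf10*, chr5:108693979-108694228 on the plus strand for *Fgfrl1* and chr14:105896820-105897069 on the minus strand for *Spry2*. The *Fgf10* and *Fgfrl1* windows lie inside the bounds of the annotated genes but outside their exons.
Fgf10: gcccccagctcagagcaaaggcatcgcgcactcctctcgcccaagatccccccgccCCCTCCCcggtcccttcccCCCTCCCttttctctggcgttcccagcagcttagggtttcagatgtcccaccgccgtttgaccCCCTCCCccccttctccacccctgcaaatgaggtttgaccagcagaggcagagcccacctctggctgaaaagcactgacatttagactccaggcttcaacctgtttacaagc
Fgfrl1: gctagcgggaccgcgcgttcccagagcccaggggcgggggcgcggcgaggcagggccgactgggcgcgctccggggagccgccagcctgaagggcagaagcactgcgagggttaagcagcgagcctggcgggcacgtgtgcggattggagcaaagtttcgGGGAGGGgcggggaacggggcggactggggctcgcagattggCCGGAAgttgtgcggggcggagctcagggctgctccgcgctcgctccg
Spry2: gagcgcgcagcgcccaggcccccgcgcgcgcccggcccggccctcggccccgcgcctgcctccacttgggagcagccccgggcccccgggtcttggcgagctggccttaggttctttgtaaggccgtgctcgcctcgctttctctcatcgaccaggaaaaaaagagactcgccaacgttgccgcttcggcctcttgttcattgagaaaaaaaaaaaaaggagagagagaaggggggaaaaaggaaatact

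The *Fgf10* window held 3 MAZ cores, all on the opposite strand, *Fgfrl1* held 1 MAZ core and 1 ETS core, and *Spry2* held neither. The exon-free windows of *Fgfr2* and *Spred1*, also called, held neither as well. For *Fgf12*, also called, the exon-free window at chr16:28753244-28753493 held 1 MAZ core, and another exon-free window held neither. A MAZ core was present in 19.7% and an ETS core in 12.0% of 32851 promoter windows of the same length. Of 26 members with a RefSeq window, 13 had a MAZ core in at least 1 window and 4 an ETS core, where a gene with several starts had several chances. These 26 genes had 34 windows, whereas the shares of all promoters are per window. Members on chromosome 18 (*Fgf1* and *Spry4*) were left out here, but that chromosome was kept among all promoters. These are matches of letters and say nothing about binding.

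Beyond the members, 66 other genes of the pathway were followed by a list, and 63 could be tested. Of these 17 were higher and 18 lower in *Patz1* KO by edgeR, or 55.6% beside the background of 47.4%, and the median log2 change was -0.12. Among 22 relay genes 8 were higher and 5 lower. *Map2k1*, which encodes the kinase MEK1, rose by 0.63 on the log2 scale. *Frs3*, a receptor adaptor gene, was counted 184 and 162 times in WT, against 775 and 388 times in *Patz1* KO, a log2 change of 1.30. The exons of *Frs3* overlap those of *Tomm6os* and *Frs3os*.

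Of 25 tested co-receptor and heparan sulfate genes, 9 were lower, 5 were higher and 11 did not pass, with a median of -0.25. Among all tested genes 23.4% were lower and 24.0% higher, and no test of the list as a whole was run. *Gpc3*, which encodes a heparan sulfate proteoglycan of the cell surface, was counted 3195 and 3877 times in WT, against 1434 and 1029 times in *Patz1* KO. Its level fell from 229 ± 20.7 to 60.2 ± 1.53 CPM (SD, n = 2), a log2 change of -1.93 (SE 0.094, adjusted p = 3.45e-11 from edgeR). *Hs6st2*, a heparan sulfate sulfotransferase gene, fell by 1.27 on the log2 scale (adjusted p = 1.72e-07 from edgeR). *Fgfbp3*, a carrier of secreted FGFs, rose from 48.1 ± 3.78 to 92.9 ± 12.9 CPM (SD, n = 2). *Flrt1*, picked out after its values were seen as the largest rise of the list, was counted 15 and 14 times in WT, against 121 and 79 times in *Patz1* KO (log2 change 2.36, adjusted p = 4.67e-06 from edgeR). *Gpc3* is also expressed in endoderm and mesenchyme, whose marker lists were lower in the same libraries, and their part in its fall was not tested.

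Other ERK targets and inhibitors were split evenly, with 4 higher and 4 lower of 16 tested, beside 24.0% and 23.4% of all tested genes. *Dusp4*, a nuclear ERK phosphatase gene, was counted 3915 and 4004 times in WT, against 12554 and 8198 times in *Patz1* KO, a log2 change of 0.97 (SE 0.095, adjusted p = 2.27e-07 from edgeR). *Etv4*, an ETS factor gene and close relative of *Etv5*, rose from 4.35 ± 0.0172 to 8.40 ± 0.677 CPM (SD, n = 2), a log2 change of 0.94. *Myc* fell by 1.18 on the log2 scale (adjusted p = 7.24e-05 from edgeR). Thus *Spry2*, *Dusp4* and *Etv4* were higher, *Spry1*, *Spred1* and *Myc* were lower, and *Dusp6* and *Etv5* were not called.

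**Figure D5:**
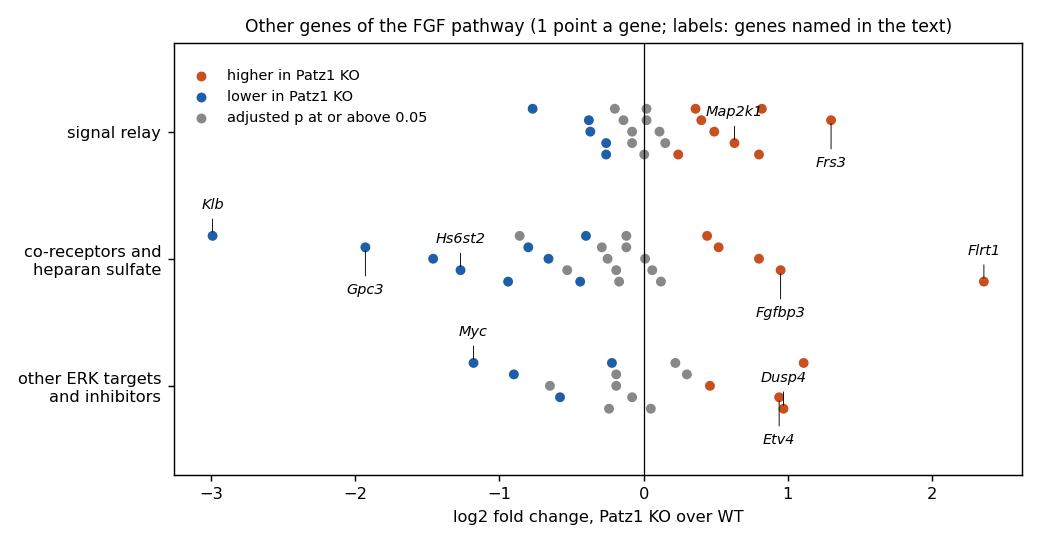
Log2 change, *Patz1* KO over WT (x axis), of the 63 tested genes in 3 lists of other pathway genes, 1 point a gene, with vertical offsets only to separate points. The lists hold 8 higher and 5 lower, 5 higher and 9 lower, and 4 higher and 4 lower genes, from top to bottom.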

How the data were processed

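Stranded libraries were made from 1 µg of total RNA after removal of ribosomal RNA. The deposited values are raw counts of reads per gene symbol, 1 library a file. According to the study's methods, the authors mapped reads to mm10 with Bowtie 2, and the submitters' processing notes name TopHat2 2.1.1, Bowtie2 2.3.1 and featureCounts 1.6.2. The annotation and the strand setting are not given in the sources used here, so overlapping genes are uncertain. The study describes biological replicates as independent differentiations.

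Counts were scaled with TMM and tested with edgeR 4.0.16 (glmQLFit and glmQLFTest, 2-sided, R 4.3.3) over 14394 genes with 10 or more counts in at least 2 libraries, with Benjamini-Hochberg adjustment. DESeq2 1.42.0 (Wald test) was run as an alternative, since the study used that test. The SE was taken as the size of the log2 change over the root of the F statistic. The fits were checked on simulated counts, in which edgeR recovered 89.5% of 190 changed genes and DESeq2 78.5% of 200. Far fewer genes were changed there than were called here, and by larger folds than those of most called members. The check therefore does not show how often changes as small as these are found. Reads carry no molecular identifiers, so floors and intervals cover counting error or these libraries only. Positions, overlaps and lengths are from GENCODE M21 (GRCm38), which matched 34 of the 35 members (not *Spry3*), and promoters are from RefSeq.

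Counts were given for called members with a log2 change of at least 0.5 and for all receptors, and for further members where a result turned on them. Of each pathway list, the 3 genes with the smallest p were named, except 1 that is not reported here. Of each marker list, the 3 genes with the highest mean CPM lead it. The members and lists were chosen with earlier results of these data known. Alternatives were other scalings, filters, tests, the replicate block, leaving out each library, and, chosen after the data were seen, thinning to the smallest library.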

Additional observations from a re-analysis of the deposited data

How the results depend on the processing

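The 21 tested members were recomputed under 15 alternatives, which gave 312 values. Of these, 280 kept their direction and their side of the threshold, 22 called values were no longer called, 7 became called, and 3 changed direction. The changes of direction concerned genes that were not called, *Fgf11* (-0.07 without KO replicate 1, and up to 0.62 without another library) and *Fgf18* (-0.17 and up to 0.38 in the same way, and -0.0028 after thinning). A required log2 change of at least 1 left 0 members called, 0 higher and 0 lower, 3 pathway genes and 711 of all genes, and *Patz1* at -1.04 was not called, which follows from the stricter test. When each library was left out, 6 to 12 members were called, 2 to 5 of them higher, and 4369 to 7709 of all genes, the lowest values without WT replicate 2. In these fits the lone library of a group is assumed to vary like the other group. The KO libraries deviated more from each other than the WT libraries, with a mean chi-square per gene of 23.39 against 10.48 before TMM scaling. This measure also rises with depth and with unequal scaling, and the KO libraries were the deeper ones, with TMM factors further apart. A call without a KO library therefore rests on the spread of the WT pair, which was smaller by this measure. DESeq2's Wald test called 7 members and 5118 genes. The other scalings and filters in edgeR called 8 to 10 members, the lowest with 10 counts required in every library, where *Fgf10* and *Fgfr4* were not tested. With the replicate block, 11 members were called, *Fgfr1* in addition, and no other call of a member changed. The replicate numbers showed no pairing, since the deviations of same-numbered libraries had a correlation of 0.005 across genes. The 14 members with too few counts were not tested, and low depth and absent expression cannot be told apart for them.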
